A study of Mus musculus with 51 samples.

Results

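Crofelemer was compared with no crofelemer in lungs of C57BL/6 mice that had a control exposure, on 11 of the 51 arrays of the series. The arrays were chosen by their titles alone: 5 with crofelemer, numbered 1 to 5, and 6 without, numbered 1 to 6. No measured value entered the choice, and 22206 probe sets were read on each array. The series as a whole studied nasal exposure of mice to methylene diphenyl diisocyanate (MDI), a chemical used to make polyurethane that can sensitise the airways, with BALB/c and B-cell deficient mice besides C57BL/6.

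Both groups were male C57BL/6 mice aged 6 to 8 weeks. Every mouse, the controls included, had first been sensitised through the skin with 1% MDI in acetone on 2 occasions. The control exposure was a solution in which MDI and glutathione (GSH) had each been reacted apart from the other. Anaesthetised mice received it into the nose 4 times, on days 15 and 16 and again on days 19 and 20. Crofelemer was given intranasally at 4 mg/kg, 4 h before each of these exposures. The labels of the other group give no drug and name no vehicle, so drug and dosing procedure cannot be told apart. Lungs were perfused and lavaged, and RNA was taken 48 h after the last exposure. On crofelemer arrays 1 to 4 one exposure label names crofelemer alone while the other labels name the control exposure too; on array 5 one source label leaves the drug out. No label says that each array is a separate mouse, so p-values measure the spread between arrays, which may be technical.

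Crofelemer is a mixture of plant proanthocyanidins from the latex of Croton lechleri. It blocks 2 chloride channels of epithelial cells, the cyclic AMP-gated channel CFTR and the calcium-activated channel encoded by Ano1. In the airway these channels let chloride leave the epithelium, and water follows into the fluid layer that carries mucus. The question the groups address is how lung gene expression differed with the drug after the control exposure.

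The crofelemer arrays stood apart from the others over the whole array, before any gene was considered. The mean log2 signal over all probe sets was 7.435 to 7.476 on the 5 crofelemer arrays and 7.486 to 7.515 on the 6 others. The difference was -0.0562 (exact permutation test over arrays, two-sided, p = 0.00216, the smallest that 462 regroupings can give). The interquartile range of signals was 4.63 to 5.03 with crofelemer and 5.07 to 5.30 without. The same gap in the mean separated all 8 crofelemer arrays of C57BL/6 mice, MDI-exposed ones included (7.435 to 7.476), from the 19 without (7.480 to 7.515). Separate processing or hybridisation of the crofelemer arrays is possible; the labels name no batch, and drug and processing cannot be told apart. Within the earlier run of consecutive records, 4 arrays against 4, the difference in the array mean was -0.0642 (exact p = 0.0286). Arrays of 1 group correlated at 0.984 to 0.994 with each other and at 0.963 to 0.980 with arrays of the other group. Lung markers were bright in both groups: Scgb1a1 (club cells) averaged 19.81 and 19.46, and Sftpc (alveolar type 2 cells) 19.57 and 19.40.

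Differences are given below as crofelemer minus control on the log2 scale with their standard error (SE), and group means with their SD over 6 and 5 arrays. A gene was called at an adjusted p under 0.05 in limma, with Benjamini-Hochberg adjustment over 22206 probe sets. Of these, 8669 (39.0%) were called: 3916 (17.6%) higher and 4753 (21.4%) lower with crofelemer, and 10399 had an unadjusted p under 0.05. Calls of at least 2-fold were fewer and mostly downward, 614 higher (2.77%) and 1705 lower (7.68%). The 2 groups did not overlap at 4513 probe sets (20.3%), with crofelemer above at 1688 (7.60%) and below at 2825 (12.7%). The share of upward calls depended on how arrays were scaled. It was 45.2% as deposited, 51.6% after quantile normalization (4387 higher, 4109 lower), 64.8% after centring each array on its median (6879 and 3730) and 67.0% after scaling to a common median and interquartile range (5956 and 2940). The median difference over all probe sets was 0.03 as deposited, 0.19 after centring and 0.14 after scaling, so changes of that size have no settled direction. Direction also went with brightness. With probe sets split into 10 equal classes by brightness, the median difference was 0.13 to 0.15 in the 3 dimmest classes and -0.15 to -0.13 in the 5 brightest. Olfactory and vomeronasal receptors, which lung hardly expresses, moved as dim probe sets did: 203 of 1412 were called higher and 15 lower, with a median of 0.17.

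**Figure D1:**
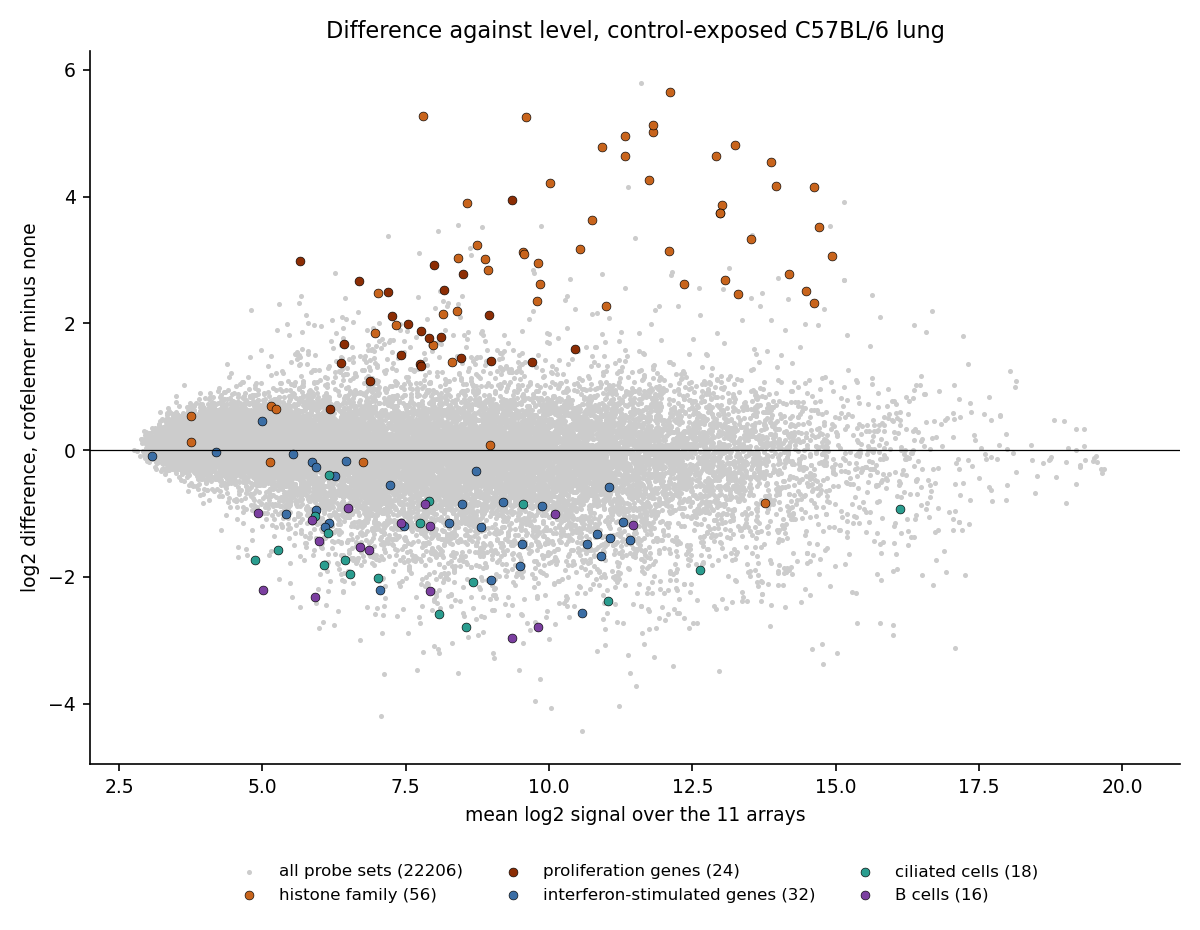
Difference (crofelemer minus control, log2) against the mean log2 signal over the 11 arrays; each point is 1 probe set and the coloured points are the histone, proliferation, interferon-stimulated, ciliated-cell and B-cell lists. Proliferation genes and 51 of 56 histone genes were called higher over a wide range of signal, with histone differences up to 5.65, while ciliated-cell, B-cell and interferon-stimulated genes lie mostly below 0.

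**Figure D2:**
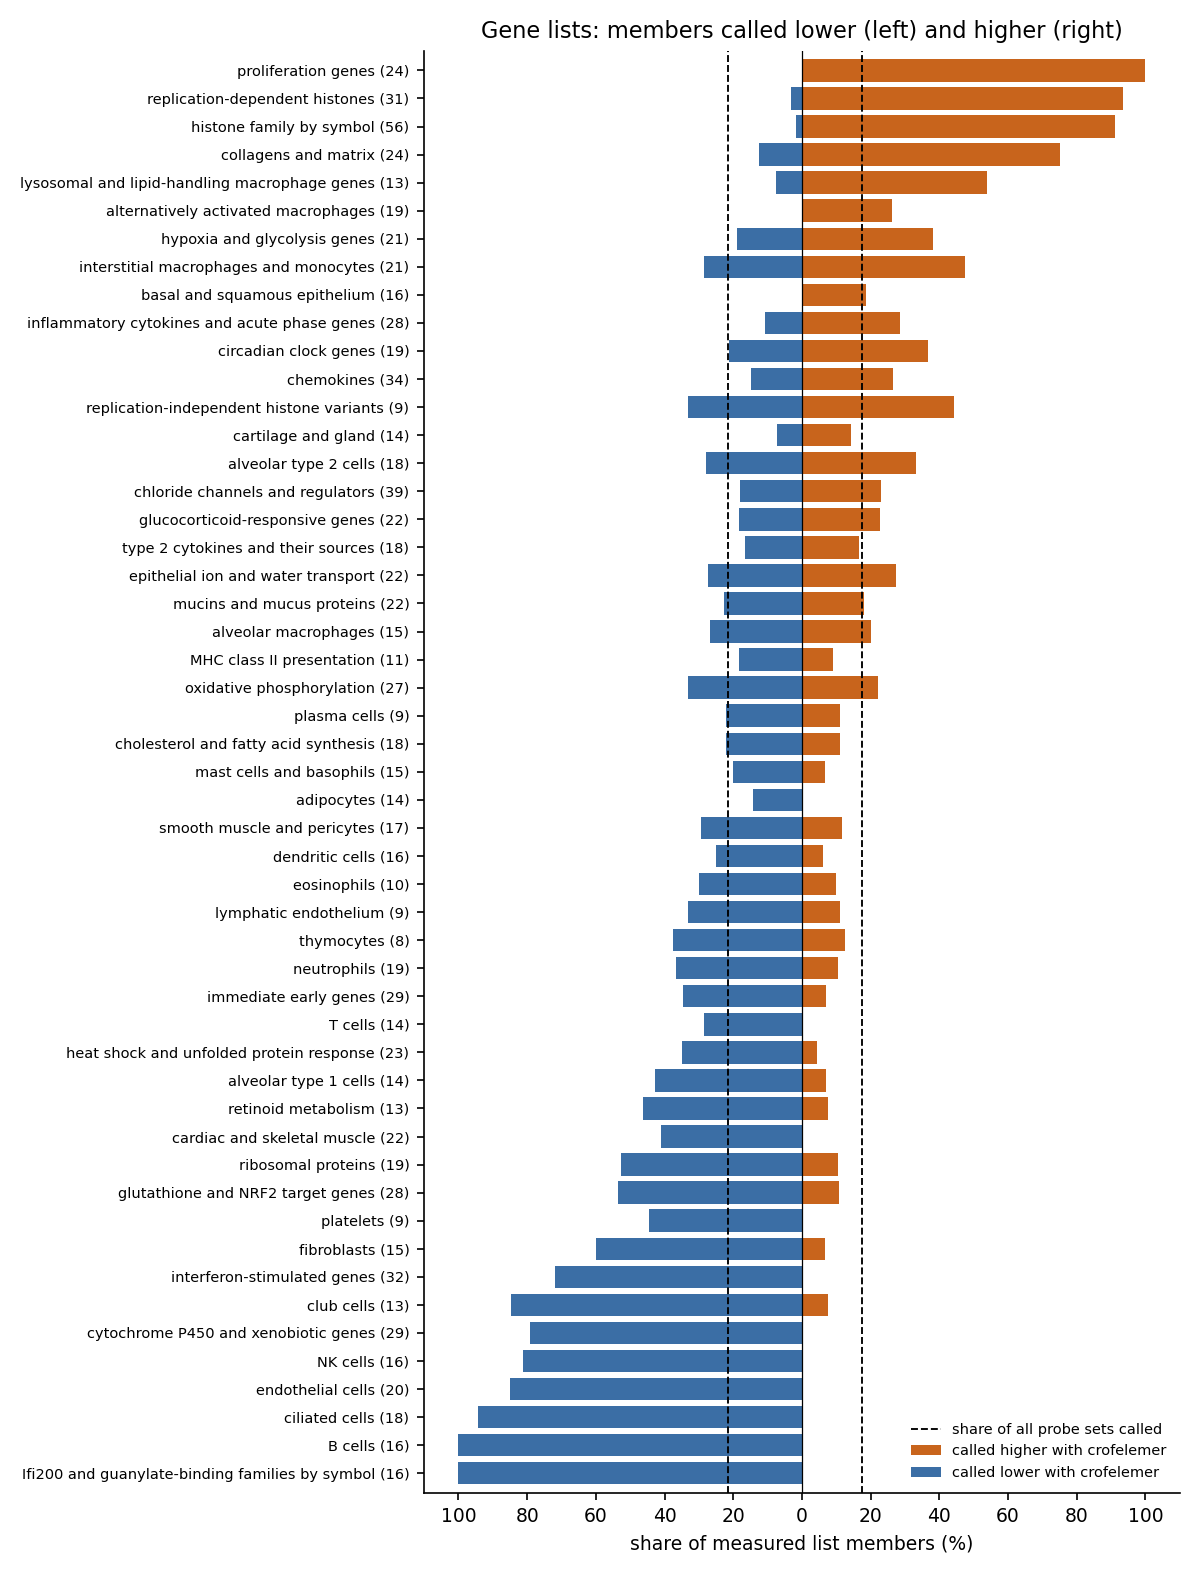
Share of measured members of each gene list called higher or lower with crofelemer, in percent; dashed lines mark the shares of all probe sets, 17.6% higher and 21.4% lower. All 24 proliferation genes were called higher and all 16 B-cell markers lower.

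Histone genes had the highest median difference of the gene lists examined. Core histones package DNA into nucleosomes, and most are encoded by clustered, replication-dependent genes used in S phase, whose mRNAs end in a stem-loop instead of a poly(A) tail. Of 56 measured histone genes, 51 were called higher and 1 lower, with a median difference of 3.04 against 0.03 over all probe sets. These 56 were taken by gene symbol, a list chosen after results of these data were known. In a shorter list of 31 measured replication-dependent histones 29 were called higher and 1 lower, with a median of 3.14. This list is of the same gene family and was also chosen with earlier results known, so it is no separate support. The crofelemer arrays lay above every control array at 48 of the 56 genes. All 13 H2A genes, 10 H3 genes and 11 H4 genes were called higher, as were 13 of 15 H2B genes and 4 of 7 linker (H1) genes. The nucleotide sequences of these genes are very alike, and 4 of them (H2ac24, H3c14, H3c15 and H4c18) have values identical to another gene's, so how much of the signal belongs to each copy is uncertain.

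H3c6, an H3 gene, read 9.07 at the lowest, 9.22 at the median and 10.56 at the highest of the control arrays. With crofelemer its values were 14.42, 15.00, 14.06, 15.07 and 14.51. The gap of 5.14 ± 0.33 (35.2-fold, adjusted p = 1.52e-17) was larger than the spread of either group. H2bc18, an H2B gene, read 6.49, 7.15 and 8.08 at the lowest, median and highest control array and 12.11, 13.32, 11.86, 13.28 and 11.76 with crofelemer. It rose by 5.26 ± 0.44 (adjusted p = 3.8e-14), and no crofelemer array overlapped the controls. The linker histone gene H1f1 averaged 5.40 ± 0.55 in controls and 10.67 ± 0.91 with crofelemer, a rise of 5.28 ± 0.42 (adjusted p = 7.29e-15). H2ac15 (5.65 ± 0.42), H3c11 (5.02 ± 0.33), H2ac12 (4.81 ± 0.30), H2ac4 (4.64 ± 0.30) and H4c6 (4.26 ± 0.44) rose in the same way. Control array 2 was the highest control at H3c6, H1f1, H2ac12 and H4c6, still far below every crofelemer array.

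One histone gene went against the rest. H2bc4, named here after its values were seen, fell by 0.83 ± 0.13 (adjusted p = 4.09e-07), from 14.14 ± 0.15 to 13.31 ± 0.32, in all 5 crofelemer arrays; after scaling to a common interquartile range it was no longer called. Of 9 variants listed as replication-independent, which are made from polyadenylated mRNAs, 4 were called higher and 3 lower, with a median of 0.08. The higher ones were Cenpa (1.48), H2az1 (1.08), H2aj (0.98) and H1f10 (0.96), and the lower ones Macroh2a2 (-0.70), H3f3a (-0.43) and H3f3b (-0.40). This list was chosen after results of these data were known.

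The promoters of H3c6 and H2bc18 are shown because CCAAT and octamer letters are common at histone genes. They run from 250 bases before to 50 after the RefSeq start (GRCm38.p6), at chr13:23562336-23562635 on the minus strand and chr3:96269450-96269749 on the plus strand. Capitals mark CCAAT on either strand (ATTGG is its other strand) and the octamer ATTTGCAT.
H3c6: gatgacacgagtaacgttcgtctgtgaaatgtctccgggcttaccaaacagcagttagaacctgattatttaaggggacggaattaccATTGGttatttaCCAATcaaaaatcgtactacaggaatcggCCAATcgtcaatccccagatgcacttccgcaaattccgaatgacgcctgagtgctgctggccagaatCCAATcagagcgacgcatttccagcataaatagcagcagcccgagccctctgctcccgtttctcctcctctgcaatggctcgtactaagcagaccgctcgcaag
H2bc18: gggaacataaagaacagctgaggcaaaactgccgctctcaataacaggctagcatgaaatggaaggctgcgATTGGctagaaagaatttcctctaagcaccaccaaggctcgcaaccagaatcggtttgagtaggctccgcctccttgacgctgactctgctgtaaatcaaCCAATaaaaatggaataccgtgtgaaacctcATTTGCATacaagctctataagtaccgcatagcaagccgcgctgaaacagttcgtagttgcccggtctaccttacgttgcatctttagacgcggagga
Of 48 promoters found for the 51 histone genes called higher, 41 (85.4%) hold CCAAT, against 37.4% of all 32851 promoters of that length. The octamer ATTTGCAT is in 12 of the 48, against 1.74% of all promoters, and TATAAA in 28 (58.3% against 13.6%). The motifs were searched on both strands and chosen after the histone result was known. Histone genes not called were not counted beside them, so these shares describe the histone list. A match describes letters in a window, not a bound site.

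Genes of cell division rose as a group too. They encode the kinases, replication factors and spindle proteins that cells make when they copy DNA and divide. All 24 measured members were called higher, with a median of 1.78, and at 16 of them no crofelemer array overlapped the controls. Plk1, a kinase that drives mitosis, read 7.09, 7.41 and 8.58 at the lowest, median and highest control array and 10.64, 13.03, 10.76, 12.30 and 10.82 with crofelemer. Its rise was 3.95 ± 0.44 (15.5-fold, adjusted p = 1.75e-10). Arrays 2 and 4 were the highest with crofelemer, at Plk1 as at Cdk1. Cdk1, the kinase that starts mitosis, read 3.44, 4.15 and 5.48 in controls and 6.49, 8.10, 6.71, 8.02 and 7.09 with crofelemer, a rise of 2.98 ± 0.37 (adjusted p = 4.68e-09). Rrm2, which makes deoxynucleotides, rose by 2.78 ± 0.34 (adjusted p = 2.5e-09), and Mcm5, part of the replicative helicase, by 2.50 ± 0.31 (adjusted p = 2.39e-09). Tyms, which makes thymidylate, rose by 1.41 ± 0.19 and Birc5, a mitotic survival factor, by 1.5 ± 0.21. Markers of 2 lineages that hold many dividing cells went in both directions. Of 8 thymocyte markers 1 was called higher and 3 lower, Ccr9 by the most (-1.78), with Dntt and Rag2 not called. The log2 of their summed signal was 9.51 to 10.21 without and 9.07 to 9.46 with crofelemer. Of 6 erythroid markers 2 were higher and 3 lower, Alas2 by the most at -1.13 (log2 of summed signal 11.30 to 11.74 and 10.88 to 11.93). The part of these 2 lineages in the rise was not tested.

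The promoters of Plk1 (chr7:122159185-122159484, plus strand) and Cdk1 (chr10:69352863-69353162, minus strand) carry TTTGAA, the core of the cell-cycle homology region bound by repressor and activator complexes of the cell cycle. Capitals mark it.
Plk1: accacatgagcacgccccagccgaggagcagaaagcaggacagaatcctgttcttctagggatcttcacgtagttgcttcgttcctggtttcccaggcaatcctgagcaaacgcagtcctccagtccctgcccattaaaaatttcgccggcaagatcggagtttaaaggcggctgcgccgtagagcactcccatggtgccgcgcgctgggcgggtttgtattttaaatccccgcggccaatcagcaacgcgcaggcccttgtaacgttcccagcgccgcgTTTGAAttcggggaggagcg
Cdk1: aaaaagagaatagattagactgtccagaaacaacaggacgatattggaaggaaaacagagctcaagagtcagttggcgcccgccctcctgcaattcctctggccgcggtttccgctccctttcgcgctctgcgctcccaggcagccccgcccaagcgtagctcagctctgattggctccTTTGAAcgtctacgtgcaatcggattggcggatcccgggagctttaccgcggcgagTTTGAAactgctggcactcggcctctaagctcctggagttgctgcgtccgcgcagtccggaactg
For the 24 genes 21 promoters were found, from 20 of them. TTTGAA on either strand is in 15 of the 21 (71.4%), against 17.9% of all promoters. The E2F letters TTTCGCGC are in 2 of the 21 (9.52% against 0.323%). All 24 genes were called, so these shares describe the list and cannot tell called members from others.

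**Figure D3:**
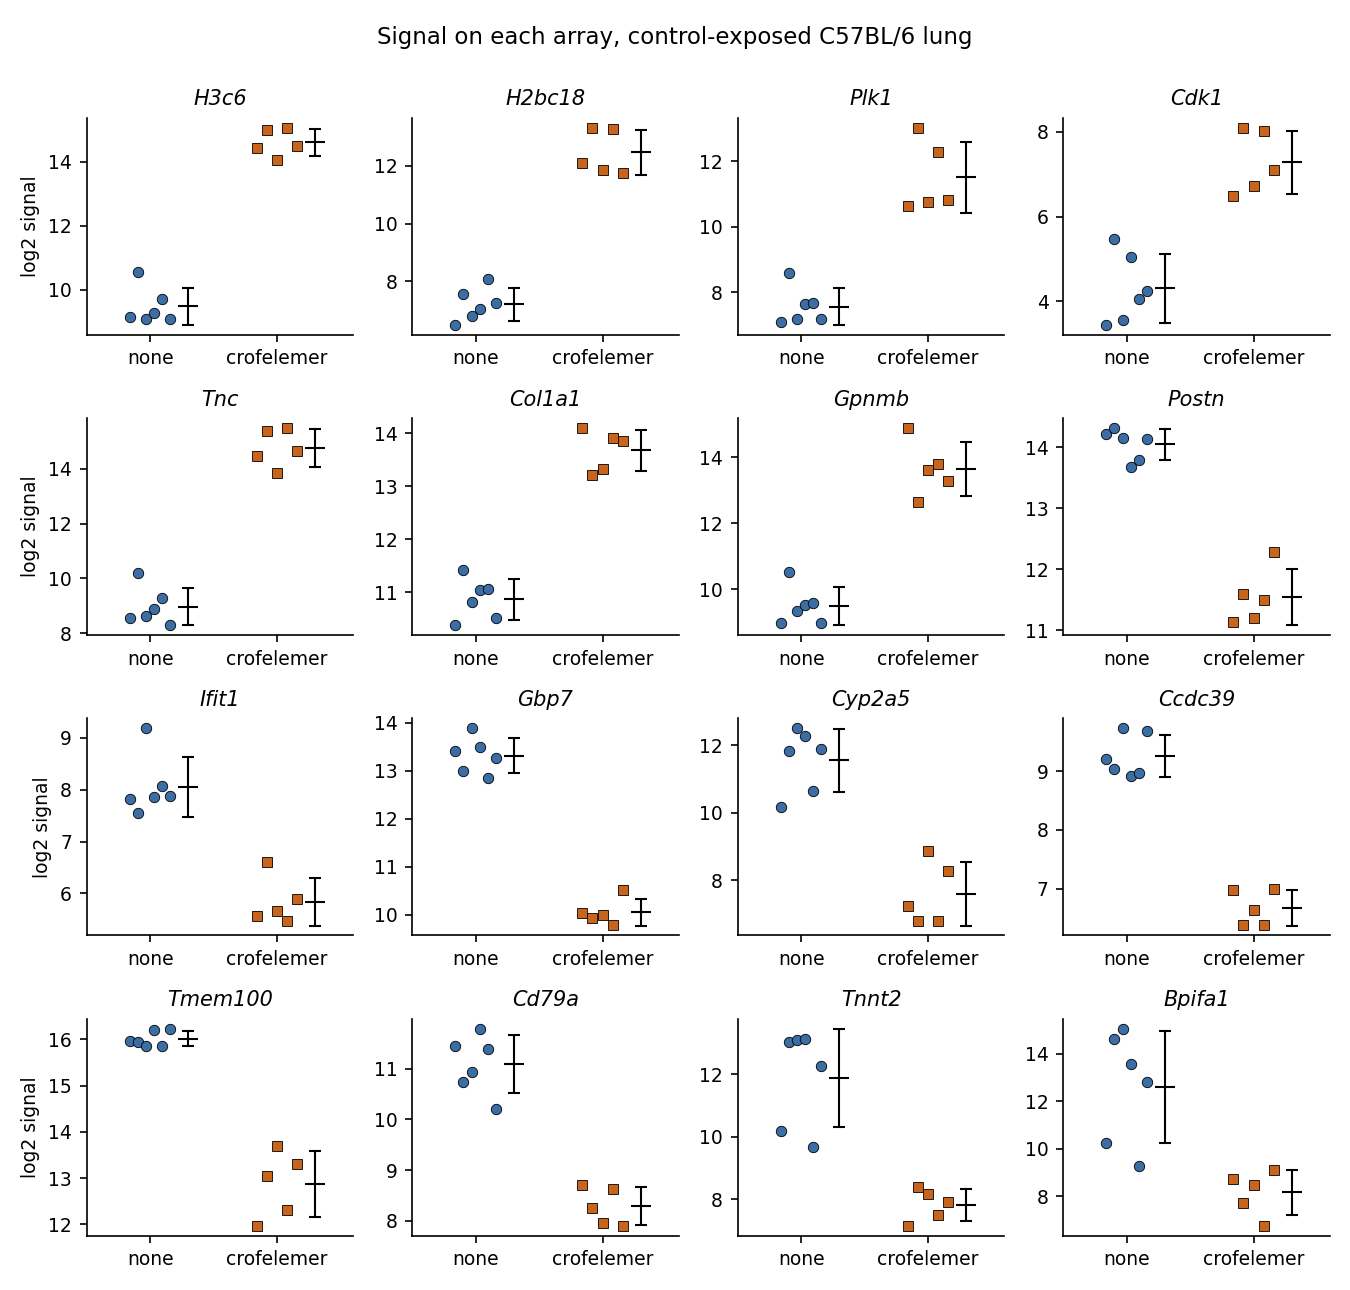
Log2 signal on each of the 11 arrays for 16 genes; points are arrays, and the horizontal line with its bar is the group mean ± SD for 6 control and 5 crofelemer arrays. At H3c6, Plk1, Tnc and Gpnmb every crofelemer array lies above the controls, and at Gbp7, Ccdc39, Tmem100 and Cd79a every one lies below.

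Fibrillar collagen and matrix genes were higher with crofelemer. Of 24 measured members 18 were called higher and 3 lower, with a median of 1.25. Tnc, a matrix glycoprotein of remodelling tissue, had the largest difference of any gene named here. It read 8.30, 8.75 and 10.18 at the lowest, median and highest control array and 14.46, 15.37, 13.84, 15.49 and 14.65 with crofelemer, a rise of 5.79 ± 0.41 (55.4-fold, adjusted p = 1.73e-16). Col1a1, a chain of type I collagen, read 10.38, 10.93 and 11.42 in controls and 14.10, 13.22, 13.33, 13.92 and 13.85 with crofelemer (2.81 ± 0.30, adjusted p = 7.85e-11). Col1a2 (2.55 ± 0.24), Col3a1 (2.71 ± 0.26) and the adhesion protein gene Fn1 (2.45 ± 0.24) rose in a like manner with no overlap of groups. Timp1, an inhibitor of matrix proteases, rose by 3.46. Not every matrix gene followed. Postn, a matricellular protein, fell by 2.51 ± 0.20 (adjusted p = 8.82e-15), from 14.05 ± 0.25 to 11.54 ± 0.46, and Dcn and Timp3 fell by 1.95 and 0.92. Of 15 fibroblast markers 9 were called lower and 1 higher, so the collagen rise did not come with a rise of those markers. Inmt, a methyltransferase used as a marker of lung fibroblasts, fell by 2.20 ± 0.24 and Dpep1, a dipeptidase, by 1.95 ± 0.21. In whole lung, a change in the number of cells of a type and a change in RNA per cell cannot be told apart, here or for any cell-type marker that follows.

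Genes of lysosome-rich, lipid-handling macrophages were mostly higher, and markers of resident macrophages were called in both directions. Over all probe sets 17.6% were called higher and 21.4% lower. Gpnmb, a transmembrane glycoprotein of such macrophages, read 8.96, 9.43 and 10.53 at the lowest, median and highest control array and 14.89, 12.65, 13.60, 13.79 and 13.28 with crofelemer. It rose by 4.16 ± 0.31 (17.9-fold, adjusted p = 7.5e-16). Of 13 genes listed as lysosomal and lipid-handling, 7 (53.8%) were called higher and 1 (7.69%) lower, with a median of 0.95. This list was chosen after results of these data were known. Ctsk, a lysosomal protease, rose by 2.70 ± 0.36, Trem2, a lipid-sensing receptor, by 1.88 ± 0.30, Lgals3, a lectin, by 1.83 ± 0.28 and the lysosomal membrane protein gene Cd63 by 1.52 ± 0.20. Among 21 interstitial macrophage and monocyte markers 10 (47.6%) were called higher and 6 (28.6%) lower. The complement genes C1qa (1.78 ± 0.27) and C1qb (1.84 ± 0.24) rose, while Lyve1, a hyaluronan receptor of some macrophages and of lymphatic vessels, fell by 3.06 ± 0.25 (adjusted p = 1.2e-14). Among 15 alveolar macrophage markers 3 (20.0%) were called higher and 4 (26.7%) lower, near the shares of all probe sets. Krt79, one of them, fell by 2.86 ± 0.21, while Ctsk, also on this list, rose as given above and Slc7a2 rose by 1.29 ± 0.23. Among 19 genes of alternatively activated macrophages 5 (26.3%) were called higher and none lower, with a median of 0.14. Msr1, a scavenger receptor, rose by 1.44 ± 0.30 (adjusted p = 0.000118), with groups that overlapped. Retnla read 11.43, 12.40 and 15.58 in controls and 14.07, 16.23, 13.41, 15.13 and 16.08 with crofelemer, so 1 control array lay among the crofelemer arrays. Its rise of 2.05 ± 0.48 (adjusted p = 0.000452) was not called within the earlier run of records alone (1.24, adjusted p = 0.0607). Arg1 (0.73 ± 0.55), Mmp12 (1.48 ± 0.63), Chil3 (-0.38 ± 0.27) and Ccl17 (-0.48 ± 0.51) did not pass the test; Mmp12 passed it after quantile normalization (1.64, adjusted p = 0.0307).

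Inflammatory genes were called in both directions. Of 28 cytokine and acute phase genes 8 (28.6%) were called higher and 3 (10.7%) lower. Over all probe sets the shares were 17.6% and 21.4%. Saa3, an acute phase protein, averaged 7.17 ± 0.33 without and 10.36 ± 0.65 with crofelemer, a rise of 3.18 ± 0.47 (adjusted p = 2.51e-07). Socs3, a feedback inhibitor of cytokine signalling, rose by 1.39 ± 0.21, Tnf by 1.38 ± 0.30 and Lcn2, an iron-sequestering protein, by 1.36 ± 0.26. Il1b fell by 2.25 ± 0.45 (adjusted p = 5.22e-05), with groups that overlapped. Of 34 chemokines 9 (26.5%) were called higher and 5 (14.7%) lower, with Cxcl9 the largest rise (1.37) and Cxcl14 the largest fall (-1.60). Of 19 neutrophil markers 7 were called lower and 2 higher, Lcn2 again and the granule enzyme gene Mpo (0.42), with a median of -0.65. The log2 of their summed signal, to which Lcn2 adds most on the crofelemer arrays, was 16.38 to 17.97 without and 17.78 to 18.42 with crofelemer. Retnlg, a neutrophil-secreted resistin-like protein, read 12.60, 14.56 and 16.10 in controls and 10.46, 10.98, 10.79, 11.83 and 11.26 with crofelemer (-3.49 ± 0.49, adjusted p = 6.06e-08). Mmp9, a protease neutrophils store, fell by 2.46 ± 0.51, and Cxcr2, their chemokine receptor, by 2.12 ± 0.45. The control arrays spread widely at these genes, over more than 3 log2 units at Retnlg and Mmp9.

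Interferon-stimulated genes were lower with crofelemer. They encode antiviral proteins that cells switch on after interferon signals through STAT and IRF factors. Of 32 measured members 23 were called lower and none higher, with a median of -1.07, and at 14 no array overlapped. Isg20, an exonuclease, read 11.42, 11.72 and 12.07 at the lowest, median and highest control array and 8.51, 9.14, 9.26, 9.12 and 9.83 with crofelemer (-2.57 ± 0.19, adjusted p = 5.73e-16). Ifit1, which binds foreign RNA, read 7.54, 7.86 and 9.18 in controls and 5.56, 6.61, 5.67, 5.47 and 5.90 with crofelemer (-2.21 ± 0.23, adjusted p = 2.01e-11). Both groups stayed apart at each gene. Trim30a fell by 2.04 ± 0.25, Xaf1 by 1.48 ± 0.15 and Ifih1, a sensor of double-stranded RNA, by 1.31 ± 0.16. The guanylate-binding and Ifi200 families, which respond to interferon and take part in defence inside the cell, fell throughout: all 16 measured members were called lower, with a median of -2.14 and no overlap at any of the 16. They form families of like sequence, so the split of signal between members is uncertain, and the list was chosen after results of these data were known. Gbp7 read 12.86, 13.34 and 13.89 in controls and 10.03, 9.94, 9.99, 9.78 and 10.52 with crofelemer (-3.27 ± 0.25, 9.63-fold, adjusted p = 2.9e-15). Ifi209 fell by 3.61 ± 0.25 (adjusted p = 1.52e-16) and Gbp3 by 1.83 ± 0.19.

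The promoters of Ifit1 (chr19:34640639-34640938, plus strand) and Gbp7 (chr3:142530086-142530385, plus strand) hold the core of the interferon-stimulated response element, TTTCNNTTT, marked in capitals.
Ifit1: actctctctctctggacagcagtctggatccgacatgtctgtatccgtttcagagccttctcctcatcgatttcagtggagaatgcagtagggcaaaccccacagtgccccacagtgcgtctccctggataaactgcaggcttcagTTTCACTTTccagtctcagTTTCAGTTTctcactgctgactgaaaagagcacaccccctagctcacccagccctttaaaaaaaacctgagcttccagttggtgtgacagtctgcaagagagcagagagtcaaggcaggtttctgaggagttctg
Gbp7: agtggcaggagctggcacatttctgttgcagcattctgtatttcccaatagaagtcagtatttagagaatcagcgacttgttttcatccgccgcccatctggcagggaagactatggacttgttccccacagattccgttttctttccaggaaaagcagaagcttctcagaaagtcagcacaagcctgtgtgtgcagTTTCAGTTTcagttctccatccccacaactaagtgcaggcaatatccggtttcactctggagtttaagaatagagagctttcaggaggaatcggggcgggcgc
For the interferon-stimulated genes called lower 23 promoters were found, from 18 of the 23 genes, since some genes have several. Of these promoters 15 (65.2%) hold this core on either strand, against 10.6% of all promoters. For the guanylate-binding and Ifi200 families 11 of 13 promoters (84.6%), from 11 of the 16 genes, hold it. Genes of both lists are known to respond to interferon, so these shares describe the lists. Members not called were not counted beside them, so nothing about crofelemer follows. The families share members with the interferon list, so these counts are not independent.

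Genes of xenobiotic metabolism were lower. Of 29 measured cytochrome P450 and related genes 23 were called lower and none higher, with a median of -1.20. Cyp2a5, a lung and liver enzyme that oxidises many foreign compounds, read 10.17, 11.88 and 12.51 at the lowest, median and highest control array and 7.25, 6.79, 8.88, 6.80 and 8.29 with crofelemer (-3.96 ± 0.55, adjusted p = 5.44e-08). Cyp1a1, the classic target of the aryl hydrocarbon receptor, fell by 4.20 ± 0.59 (adjusted p = 8.54e-08), with control arrays spread from 7.35 to 12.30. Cyp4b1 fell by 2.28 ± 0.23, Cyp2d22 by 2.46 ± 0.24, the monooxygenase gene Fmo1 by 2.13 ± 0.22 and the carboxylesterase gene Ces1d by 2.03 ± 0.18, with no overlap at any of these. Pon1, an esterase, fell by 3.52 ± 0.45. Glutathione and NRF2 target genes, which conjugate and reduce electrophiles, were mostly lower too: 15 of 28 were called lower and 3 higher, with a median of -0.57; after scaling to a common interquartile range the counts were 11 and 10. Gsta3 fell by 2.80 ± 0.25, Gsta2 fell by 2.99 ± 0.29 and Gstm1 fell by 1.48 ± 0.20, while Hmox1 rose by 1.07. Glutathione transferase genes are close paralogs, so their split is uncertain. For 13 of the 15 genes called lower 15 promoters were found. The NRF2 letters TGACNNNGC are in 3 of these promoters (20.0%) and in 12.4% of all promoters.

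Of 13 retinoid genes, a list chosen after results of these data were known, 6 were called lower and 1 higher. Lrat, which stores vitamin A as esters, read 12.25, 13.04 and 14.55 in controls and 8.00, 9.98, 11.49, 9.29 and 8.66 with crofelemer (-3.71 ± 0.48, adjusted p = 9.37e-09). Cyp26b1, which breaks down retinoic acid, fell by 3.53 ± 0.66, with groups that overlapped. Aldh1a1, which makes retinoic acid, fell by 1.97 ± 0.20 and the receptor gene Rarb by 1.45 ± 0.24.

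Ciliated-cell markers were lower. Motile cilia beat mucus up the airway and their structural genes are expressed in few other lung cells. Of 18 measured markers 17 were called lower and none higher, with a median of -1.73, and at 15 no array overlapped. Ccdc39, a ruler protein of the axoneme, read 8.92, 9.12 and 9.73 at the lowest, median and highest control array and 6.98, 6.39, 6.63, 6.38 and 6.99 with crofelemer (-2.58 ± 0.20, adjusted p = 7.2e-15). Dynlrb2, a dynein light chain, fell by 2.80 ± 0.20 (adjusted p = 3.14e-16), and the radial spoke gene Rsph1 by 1.74 ± 0.17. Ccdc146 and Enkur, cilium genes outside the list, fell by 3.47 ± 0.22 and 3.28 ± 0.22. They were named for the size of their fall, so they add nothing to the marker counts. Club-cell markers were lower as well, 11 of 13 with 1 higher and a median of -0.99, but 5 and 1 after scaling to a common interquartile range. Cldn10, a tight junction protein, fell by 1.64 ± 0.19, and the secretoglobin gene Scgb3a2 by 1.29 ± 0.24, a call lost after that scaling. Bpifa1, an airway surface protein, read 9.25, 13.18 and 15.06 in controls and 8.71, 7.72, 8.48, 6.75 and 9.11 with crofelemer (-4.44 ± 0.92, adjusted p = 9.67e-05). Scgb1a1, the defining club-cell product, was lower by 0.36 ± 0.07 as deposited (adjusted p = 1.8e-05) but higher by 0.62 after scaling, so its direction is not settled.

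Alveolar markers did not move together. Of 18 type 2 markers 6 were called higher and 5 lower (14 and 1 after scaling), and of 14 type 1 markers 1 was called higher and 6 lower (5 and 2 after scaling). Sftpc, surfactant protein C, was lower by 0.17 ± 0.06 as deposited (adjusted p = 0.0239) but higher by 0.80 after scaling. Napsa, a protease that matures surfactant protein B, rose by 1.03 ± 0.15, and S100g, a calcium-binding protein, fell by 1.99 ± 0.35. Akap5 fell by 2.23 ± 0.22 and Hopx, a transcriptional cofactor of type 1 cells, by 1.55 ± 0.16, with no overlap at any of these 4 genes.

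Endothelial markers were lower. Of 20 measured markers 17 were called lower and none higher, with a median of -1.07; after scaling to a common interquartile range 9 were lower and 1 higher. Tmem100, which acts in endothelial BMP signalling, read 15.86, 15.96 and 16.23 at the lowest, median and highest control array and 11.97, 13.05, 13.69, 12.32 and 13.31 with crofelemer (-3.14 ± 0.25, adjusted p = 7.73e-15). Ednrb, the endothelin B receptor, fell by 2.40 ± 0.22, Emcn, a capillary sialomucin, by 2.05 ± 0.15, and Plvap, a component of capillary diaphragms, fell by 2.38 ± 0.26. Pecam1, an adhesion molecule of all endothelium, fell by 1.15 ± 0.13, a call lost after that scaling.

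B-cell and natural killer cell markers were lower. All 16 measured B-cell markers were called lower, with a median of -1.31 and no overlap at any of them. The log2 of their summed signal, to which bright members add most, was 13.07 to 13.90 without and 11.82 to 12.18 with crofelemer. Cd79a, a chain of the B-cell receptor complex, read 10.21, 11.16 and 11.79 at the lowest, median and highest control array and 8.71, 8.25, 7.95, 8.63 and 7.90 with crofelemer (-2.80 ± 0.27, adjusted p = 5.86e-12). Bank1, a B-cell adaptor, fell by 2.96 ± 0.36, Ms4a1 (CD20) by 2.32 ± 0.25 and Fcrla by 2.20 ± 0.20. Of 16 natural killer cell markers 13 were called lower and none higher, with a median of -0.91. Gzma, a granule protease, fell by 2.72 ± 0.28 (adjusted p = 3.38e-11), the activating receptor gene Ncr1 by 2.02 ± 0.33 and Klrb1c by 1.72 ± 0.27. Of 14 T-cell markers 4 were called lower and none higher, with a median of 0.01; 28.6% lower is near the 21.4% of all probe sets.

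Heart and skeletal muscle markers show a tissue that is sometimes taken along with lung. Of 22 measured, 9 were called lower and none higher. The log2 of their summed signal was 12.77 to 15.42 without and 12.33 to 12.97 with crofelemer. Tnnt2, cardiac troponin T, read 9.67, 12.64 and 13.13 at the lowest, median and highest control array and 7.15, 8.39, 8.16, 7.48 and 7.91 with crofelemer (-4.08 ± 0.55, adjusted p = 2.96e-08). Tnni3 fell by 2.21 ± 0.42 and Myl7, an atrial light chain, by 1.98 ± 0.49. The part of attached heart muscle or pulmonary vein muscle in other differences was not tested. Platelet markers were lower at 4 of 9, with none higher.

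Clock genes were called higher at more than the share of all probe sets and lower at about that share. The clock is a loop in which Arntl, Clock and Npas2 drive the Per, Cry and Dbp genes. Of 19 members 7 (36.8%) were called higher and 4 (21.1%) lower, beside 17.6% and 21.4% of all probe sets. Arntl read 9.90, 10.44 and 11.15 in controls and 7.71, 8.94, 8.58, 8.56 and 8.35 with crofelemer (-2.01 ± 0.24, adjusted p = 1.1e-09), and Npas2 fell by 1.67 ± 0.28. Per2 rose by 1.86 ± 0.32, Per3 by 1.63 ± 0.29 and the repressor gene Bhlhe40 by 1.39 ± 0.20. The hour at which lungs were taken is not given in the sources used here. Immediate early genes, which respond to stimulation within minutes and also to tissue handling, were lower at 10 of 29 and higher at 2, with a median of -0.38; after scaling to a common interquartile range 5 were lower and 7 higher. Nr4a1 fell by 2.07 ± 0.39, Klf2, a flow-responsive factor of endothelium, by 1.78 ± 0.38 and Klf4 by 1.34 ± 0.25. Dusp1, a phosphatase of MAP kinases, fell by 1.29 ± 0.33, a call lost after scaling.

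Heat shock and unfolded protein response genes were lower at 8 of 23 and higher at 1, and after scaling 4 and 4. Hsp90aa1, an inducible cytosolic chaperone, fell by 2.39 ± 0.24 (adjusted p = 1.01e-11) and Hsp90b1, its counterpart in the endoplasmic reticulum, by 1.62 ± 0.16. Of 22 glucocorticoid-responsive genes 5 (22.7%) were called higher and 4 (18.2%) lower, near the 17.6% and 21.4% of all probe sets. Fkbp5, a co-chaperone of the glucocorticoid receptor, read 10.20, 11.40 and 12.23 in controls and 13.26, 13.32, 13.53, 13.75 and 13.58 with crofelemer (2.27 ± 0.46, adjusted p = 6.49e-05). Klf9, also glucocorticoid-induced, fell by 1.36 ± 0.29, a call lost after scaling.

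**Figure D4:**
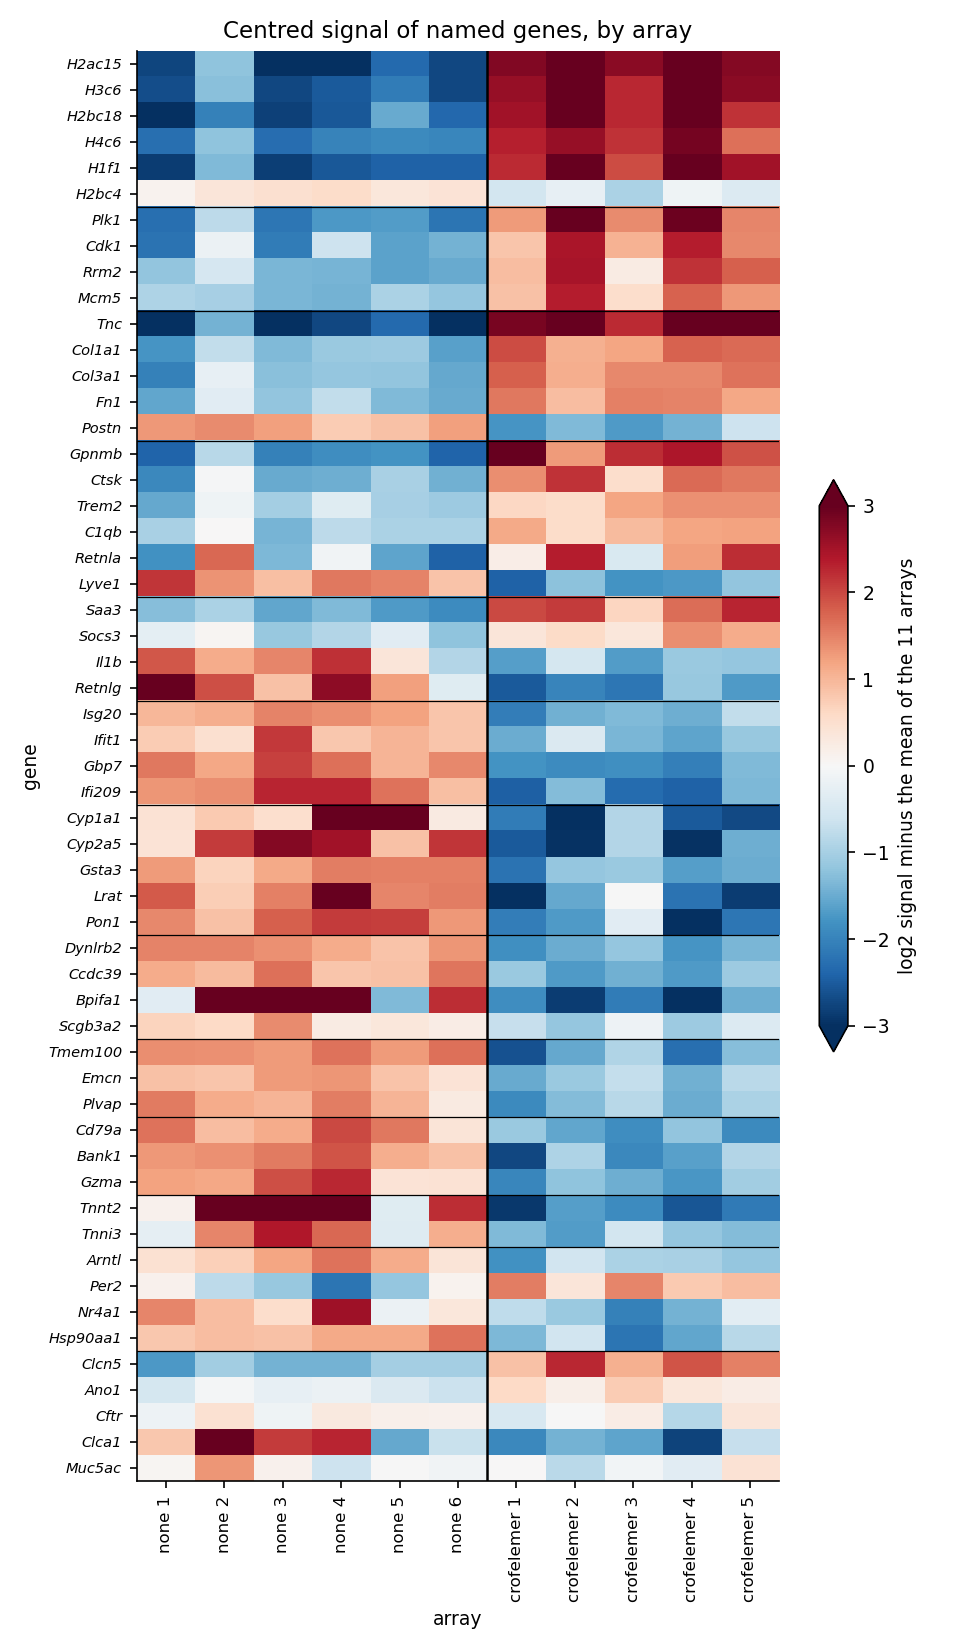
Log2 signal of the named genes on each of the 11 arrays, centred per gene over the 11 arrays; the colour scale runs from -3 to 3 log2 units, columns are arrays and rows are genes. At most genes shown the 5 crofelemer columns and the 6 control columns lie on opposite sides of 0, as for Tnc, at 13.84 to 15.49 against 8.30 to 10.18, while Cftr and Muc5ac show no such split.

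The channels crofelemer is known to block were examined directly. Ano1 read 13.79, 14.08 and 14.37 at the lowest, median and highest control array and 15.03, 14.60, 15.18, 14.76 and 14.65 with crofelemer, a rise of 0.77 ± 0.14 (1.70-fold, adjusted p = 1.64e-05) with no overlap. Cftr averaged 10.30 ± 0.24 without and 10.03 ± 0.51 with crofelemer, a difference of -0.28 (95% interval -0.71 to 0.16, adjusted p = 0.322). Ano6, a related scramblase, differed by 0.03 (-0.19 to 0.25) as deposited and was called higher by 0.53 after scaling to a common interquartile range (adjusted p = 0.00364). Of 39 chloride channels and regulators 9 were called higher and 7 lower, shares of 23.1% and 17.9% beside 17.6% and 21.4% of all probe sets; the counts were 14 and 5 after centring and 15 and 5 after scaling. The largest rise was that of Clcn5, a chloride-proton exchanger of endosomes, which read 8.03, 8.52 and 8.73 in controls and 10.61, 12.01, 10.81, 11.63 and 11.26 with crofelemer (2.79 ± 0.25, adjusted p = 2.88e-13). Clcn7, its lysosomal relative, rose by 1.39 ± 0.21, Ttyh2 by 1.23 ± 0.19 and Slc12a2, the cotransporter that loads chloride into secreting cells, by 0.87 ± 0.13. Fxyd3, a regulator of the sodium pump, fell by 1.28 ± 0.19 and Clic6 by 1.09 ± 0.19. Clca1, a secreted regulator of Ano1 made by goblet cells, read 6.47, 9.45 and 13.42 in controls and 6.06, 6.59, 6.41, 5.21 and 7.30 with crofelemer (-3.09 ± 0.81, adjusted p = 0.00175), so the groups overlapped. Of 22 ion and water transport genes 6 (27.3%) were called higher and 6 (27.3%) lower, beside 17.6% and 21.4% of all probe sets. For this list the counts were 11 and 6 after centring and 10 and 3 after scaling. The water channel gene Aqp5 rose by 0.83 ± 0.17, Sgk1, a kinase that raises sodium uptake, by 0.90 ± 0.16, and Aqp1, the endothelial water channel, fell by 1.00 ± 0.18, a call lost after scaling.

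Of 22 mucus genes 4 (18.2%) were called higher and 5 (22.7%) lower, near the 17.6% and 21.4% of all probe sets. With dim probe sets filtered out 9 of these genes remained. Of these 1 was called higher and 4 lower, with a median of -0.58. Muc1, a membrane mucin, rose by 1.10 ± 0.15, and Tff2, a mucus-associated peptide, fell by 2.09 ± 0.45 with overlapping groups. The gel-forming mucins were not called, Muc5b at 0.63 (95% interval -0.26 to 1.53) and Muc5ac at -0.29 (-1.25 to 0.67). Among 18 type 2 cytokine genes and their sources 3 (16.7%) were called higher and 3 (16.7%) lower. Over all probe sets the shares were 17.6% and 21.4%. Il33, an alarm cytokine, rose by 1.05 ± 0.31 and the receptor gene Il4ra by 1.05 ± 0.19. Tslp, another alarm cytokine, fell by 1.44 ± 0.21, the eosinophil receptor gene Il5ra by 1.47 ± 0.28 and Stat6 by 0.69 ± 0.13, the last a call lost after scaling.

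Of 21 hypoxia and glycolysis genes 8 (38.1%) were called higher and 4 (19.0%) lower, beside 17.6% and 21.4% of all probe sets. The counts were 11 and 3 after centring, 12 and 1 after scaling and 7 and 1 in the earlier run of records. Ldha rose by 1.14 ± 0.15, Gapdh by 1.03 ± 0.17 and Pkm by 1.00 ± 0.19, none with overlapping groups, while Adm, a vasodilator peptide, fell by 1.81 ± 0.23. Ribosomal protein genes were lower at 10 of 19 and higher at 2, and after scaling 3 and 6; Rpl4 fell by 1.36 ± 0.12 and Rps24 by 1.64 ± 0.21. Oxidative phosphorylation genes were lower at 9 of 27 and higher at 6, and after scaling 4 and 10; Uqcrb fell by 1.60 ± 0.15 and Ndufa4 by 1.55 ± 0.18. The smallest adjusted p among the named genes belonged to Sec62, a subunit of the endoplasmic reticulum translocon, which was named after its values were seen. It read 14.89, 15.12 and 15.28 in controls and 12.25, 12.18, 12.26, 12.34 and 12.67 with crofelemer (-2.78 ± 0.12, 6.87-fold, adjusted p = 1.36e-24).

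The same drug was also given before MDI exposure, on 3 arrays with crofelemer and 13 without, which share no array with the comparison above. There 7232 probe sets (32.6%) were called, 3336 higher (15.0%) and 3896 lower (17.5%). With same-numbered arrays blocked as pairs, over 6 arrays, the count was 2148 (643 higher, 1505 lower). Of the probe sets called in the control exposure 5173 were called in the MDI exposure too, 59.7% of the first list and 71.5% of the second; 5154 of them had the same direction and 19 the opposite one. Over all 22206 probe sets the differences of the 2 exposures had a Pearson correlation of 0.833 and a Spearman correlation of 0.753, given as a description since both share the possible separate processing of crofelemer arrays. Histone genes (52 of 56 called higher), Gpnmb (3.89) and Tnc (4.32) rose there as well, and Sec62 (-2.91), Postn (-3.45) and Lyve1 (-2.88) fell there as well. Proliferation genes were called at 10 of 24 there, all higher. B-cell markers were lower at 15 of 16 and none higher. Some lists had other counts under MDI, which were not tested as sets. Alternatively activated macrophage genes were higher at 2 and lower at 14 of 19, with a median of -1.49 against 0.14 in the control exposure. Immediate early genes were higher at 5 and lower at none of 29 (0.20 against -0.38). Interferon-stimulated genes were higher at 1 and lower at 11 of 32 (-0.40 against -1.07).

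**Figure D5:**
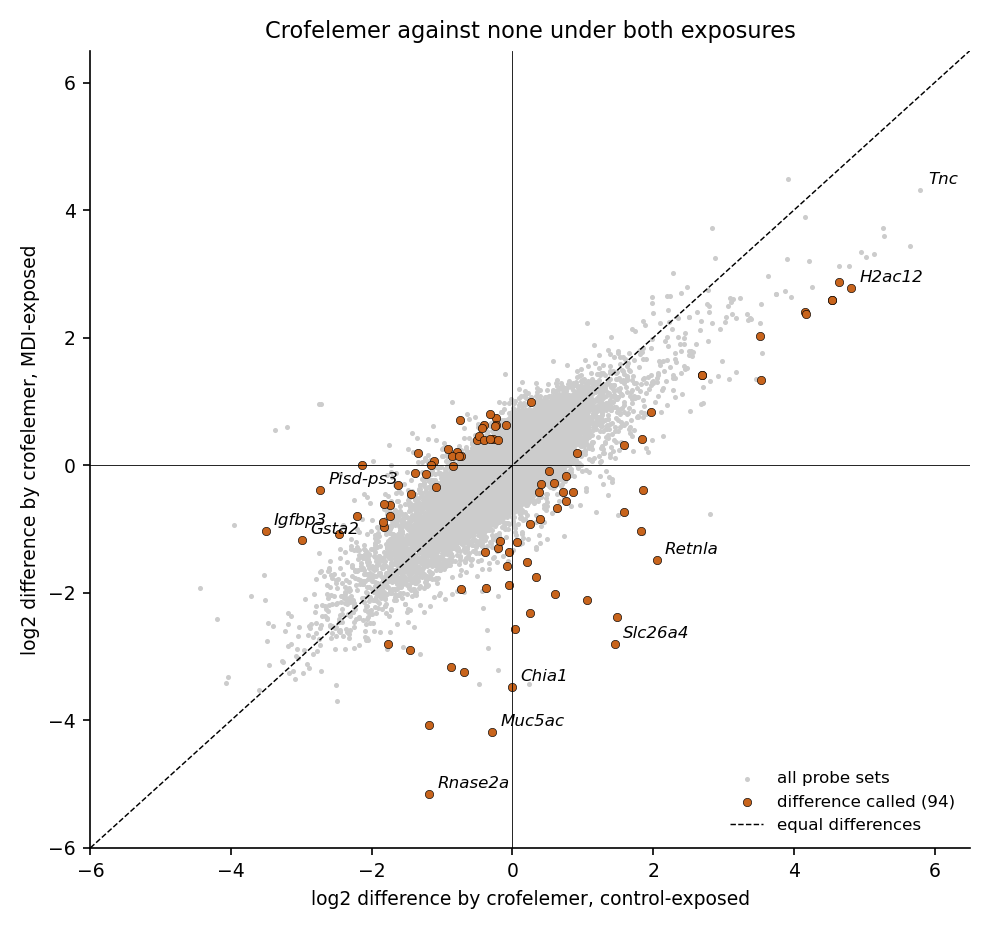
Crofelemer difference in control-exposed lung (horizontal, log2) against that in MDI-exposed lung (vertical, log2), 1 point per probe set, with the 94 probe sets whose differences differed between exposures marked. The Pearson correlation over all points is 0.833; Muc5ac is among the marked probe sets, at -0.29 and -4.18.

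The drug difference itself was called different between exposures at few probe sets. Few calls do not show like effects, since only 3 MDI-exposed arrays with crofelemer were compared. The test of that difference, control exposure minus MDI exposure, called 94 of 22206 (0.423%), 54 higher (0.243%) and 40 lower (0.180%), and 2679 had an unadjusted p under 0.05. This count rested on single arrays: it was 40 without control array 1, 58 without control array 4, 62 without control array 5, 42 and 57 without crofelemer arrays 2 and 4, and 36 and 20 without MDI crofelemer arrays 1 and 2. With same-numbered arrays blocked, over 12 arrays, 4 were called, all lower, and none of the 13 genes described next was among them (adjusted p 0.152 to 0.688). Their adjusted p below are from the fit without the block. Muc5ac did not pass the test in the control exposure (-0.29) but fell by 4.18 in the MDI exposure, a difference of 3.88 (adjusted p = 0.00397). Chia1, an acidic chitinase, differed by -0.01 in the control exposure and by -3.48 in the MDI exposure (3.47, adjusted p = 0.00578). Rnase2a, an eosinophil ribonuclease, differed by -1.19 and -5.16 (3.97, adjusted p = 0.00578), the chemokine gene Ccl8 by 1.05 and -2.11 (3.16, adjusted p = 0.0183) and Mmp12, a macrophage elastase, by 1.48 and -2.39 (3.87, adjusted p = 0.0361). Retnla rose by 2.05 in the control exposure and fell by 1.49 in the MDI exposure (3.54, adjusted p = 0.00922), and Slc26a4, an anion exchanger, rose by 1.45 and fell by 2.81 (4.26, adjusted p = 0.0144), although the rise in the control exposure was not called without control array 1, 3, 4 or 6 or crofelemer array 2, 3 or 5 (1.21 to 1.53), nor with only the C57BL/6 groups fitted, with runs of records as a term or in the earlier run alone (1.36 to 1.45). Other genes fell more in the control exposure. Igfbp3, which binds insulin-like growth factors, fell by 3.51 ± 0.24 there and by 1.03 under MDI (-2.48, adjusted p = 9.77e-05). Gsta2 fell by 2.99 and 1.18 (-1.82, adjusted p = 0.033), Colgalt2, which glycosylates collagen, by 2.21 and 0.80 (-1.41, adjusted p = 0.0462), and Pisd-ps3 by 2.74 ± 0.31 in the control exposure, where its difference under MDI was -0.39 and not called (-2.35, adjusted p = 0.00676). Cyp2a4 fell by 2.14 ± 0.35 in the control exposure and was not called under MDI, at an adjusted p of 0.995 (-2.13, adjusted p = 0.035), and the platelet tubulin gene Tubb1 fell by 1.35 ± 0.24 and differed by 0.19 (-1.54, adjusted p = 0.0299).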

How the data were processed

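Lung RNA (250 ng, labelled as biotin cRNA) was read on 51 arrays, 1 per sample. The authors deposited log2 signals per probe set (1.86 to 20.91, 2 decimals), written with Transcriptome Analysis Console per the submitters' processing notes; neither its version nor the normalization is given in the sources used here, and no source says whether crofelemer arrays were processed apart. Precision is limited by the number of arrays. Of 22206 probe sets 19572 carry 1 gene symbol and 2634 none here, and 55 symbols have several probe sets, of which the brightest stands for the gene.

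The deposited values were fitted in limma 3.58.1 (R 4.3.3) with 8 group means over 49 arrays, an intensity trend and 41 residual degrees of freedom; groups not compared add only to the estimate of spread. Array means were compared by an exact permutation test over every regrouping of the arrays (Python 3.11.15). The fit was tested on simulated data. Figures used matplotlib 3.10.9, and promoters came from a RefSeq table (GRCm38.p6). Alternatives were other scalings, a filter on dim probe sets, fewer arrays, array weights, runs of consecutive records (possible batches), a replicate block and leaving out each array.

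The comparison, gene lists and tests were chosen with earlier results of these data known. Genes were named by rule: the 14 largest rises and falls among called, bright, properly named genes, up to 6 members with the smallest p in each list, 13 fixed genes, and up to 8 genes in each direction for the difference between exposures; not all of them are printed. Same-numbered MDI arrays with and without crofelemer deviated together (correlations 0.167, 0.166 and 0.105), so that comparison is given with its block too. The pairing comes from the numbers in the titles, and same-numbered MDI arrays lie beyond the level of 0.1 set for it. MDI array 3 without crofelemer correlated best with MDI crofelemer array 1, not with its own number, so the pairing is not established. The 2 arrays whose labels contradict each other on the drug were left out of every comparison.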

Additional observations from a re-analysis of the deposited data

Results flagged for a closer look

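In 11 of 302 groups of values of the named genes 1 array lay far from the others by Dixon's test, which chance gives in about 1 of 20. Control array 2 was high at H1f1 (6.46, others 4.95 to 5.37), H2ac12 (12.19, others 10.61 to 11.08) and H4c6 (10.52, others 9.46 to 9.82). Control array 3 was high at Ifit1 (9.18, others 7.54 to 8.07), Gbp3 (11.0, others 10.07 to 10.3), Xaf1 (11.03, others 9.81 to 10.19) and Clic6 (12.24, others 11.54 to 11.77). Control array 1 was high at Tubb1 (8.89, others 7.60 to 7.98). Crofelemer array 4 was low at Ncr1 (5.39, others 6.57 to 6.75), and crofelemer array 5 was high at Klf4 (10.89, others 9.83 to 10.09) and Chia1 (8.62, others 6.85 to 7.11).

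The crofelemer difference itself differed between the control and MDI exposures (limma, control minus MDI, Benjamini-Hochberg over all probe sets) at 16 named genes. It was larger in the control exposure for the histone genes H2ac12 (2.03, adjusted p = 0.0191) and H2ac4 (1.78, adjusted p = 0.0489) and for C1qb (1.43, adjusted p = 0.0496). It was above the MDI value at Retnla (3.54), Muc5ac (3.88), Slc26a4 (4.26), Rnase2a (3.97), Mmp12 (3.87), Chia1 (3.47) and Ccl8 (3.16), with adjusted p from 0.00397 to 0.0361. It was below the MDI value at Gsta2 (-1.82), Igfbp3 (-2.48), Cyp2a4 (-2.13), Pisd-ps3 (-2.35), Tubb1 (-1.54) and Colgalt2 (-1.41), with adjusted p from 9.77e-05 to 0.0462. With same-numbered arrays blocked, over 12 arrays, no probe set was called higher and 4 were called lower, so the 10 positive calls are lost; the 6 negative ones are lost too, Igfbp3 having the smallest adjusted p (0.152).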

How the results depend on the processing

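The count of probe sets called between crofelemer and control stayed within 1.5 times of 8669 in every alternative run: 6127 without dim probe sets, 10609 after centring, and 7166 to 8896 elsewhere, 7803 to 8512 with 1 array left out. Same-numbered arrays did not deviate together as a set here (correlations -0.221 to 0.123), although pair 1, at 0.123, lay beyond the level of 0.1. The replicate block over 10 arrays gave 7166 (2990 higher, 4176 lower). The MDI comparison gave 2148 under the replicate block and 4993 to 7786 with 1 array left out. The difference between exposures moved from 94 to 47 without dim probe sets, 10 with only the C57BL/6 groups fitted, 53 with array weights, 8 in the earlier run of records and 4 under the replicate block over 12 arrays, and to 20 to 125 with 1 array left out. The dim-probe filter tests fewer probe sets, and the smaller fits use fewer arrays; the cause was not tested otherwise. Of 139 named and called genes 128 kept direction and call in every alternative. Reversed values were Chia1 at 0.15 (quantile), 0.15 (centred), 0.17 (scaled), 0.09 (weights) and -0.33 to 0.22 with 1 array left out, against -0.01 with all; after scaling, Scgb1a1 at 0.62, Sftpc at 0.80, Cftr at 0.08, Chil3 at 0.37 and Chil4 at 0.14; Chil4 at 0.01 without control array 2, within a range of -0.66 to 0.01 over arrays left out; and Ano6 at -0.03 with weights and in the earlier run of records, -0.00 under the replicate block and -0.04 to -0.00 with 1 array left out. The cause was not tested. The block over 10 arrays changed no call of a named gene except Sftpc, Rnase2a, Mmp12 and Ccl8.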

Other observations

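Labels of 2 further arrays of MDI-exposed C57BL/6 lung contradict each other on the drug: one is titled with crofelemer while its other labels give none, and the other is titled without it while its other labels give crofelemer. Their values are given by title. The array titled with crofelemer had an array mean of 7.449 and read 13.16 at Tnc, 13.05 at H3c6, 12.98 at Gpnmb, 13.05 at Sec62, 15.94 at Clca1, 7.33 at Ccdc39, 8.64 at Cd79a and 12.87 at Col1a1. The array titled without it had an array mean of 7.500 and read 10.85 at Tnc, 12.19 at H3c6, 11.75 at Gpnmb, 14.99 at Sec62, 19.24 at Clca1, 8.80 at Ccdc39, 10.79 at Cd79a and 12.81 at Col1a1.

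Among genes the text has not described, cholesterol and fatty acid synthesis genes were called higher at 2 of 18 and lower at 4 as deposited, but 9 and 1 after scaling to a common median and interquartile range; Fasn rose by 0.73 and Elovl6 fell by 2.14. Of 16 basal and squamous epithelial markers 3 (18.8%) were called higher and none lower, near the 17.6% of all probe sets called higher, with Sprr1a, a cornified envelope protein, up by 1.99. Mast cell and basophil markers (3 of 15 lower, 20.0%) and adipocyte markers (2 of 14, 14.3%) did not pass the 21.4% of all probe sets called lower.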
